A study of Mus musculus with 18 samples.

Results

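The genes described here are Myc and 43 factors that make or assemble ribosomes in the nucleolus, 44 genes of the 27179 listed in each count file. They were chosen by name, through the Entrez identifiers of the listed mouse symbols, and all 44 were found and passed the filter on low counts. The choice of these genes and of the other lists was made with earlier results of these data known. Their shares set against all tested genes are therefore a description only. The libraries come from naive CD4 T cells of mice with floxed Maf alleles (Maf fl/fl), with the CD4Cre transgene (labelled CD4Cre+) or without it (labelled CD4Cre-). CD4Cre expresses the Cre recombinase from Cd4 regulatory sequence, so that it acts in T cells. The cells were kept for 3.5 days on plate-bound antibodies to CD3 and CD28 in 1 of 3 conditions labelled TfhA, Tfh1 and Tfh5, then sorted by flow cytometry. The composition of these conditions and the ages of the mice are not stated in the labels. Each of the 6 groups of label and condition has 3 libraries, with the numbers 2, 4 and 5 in the Cre-negative groups and 1, 3 and 6 in the Cre-positive groups. No label ties a number to an animal. The p-values therefore reflect only how much these samples vary, a spread that may be technical.

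A growing cell needs ribosomes, and an activated T cell increases their production before it divides. RNA polymerase I transcribes the ribosomal RNA precursor in the nucleolus. Small nucleolar ribonucleoproteins, guided by box C/D or box H/ACA RNAs, methylate or pseudouridylate it, and large sets of processing factors cut and fold it into the small and the large subunit. The transcription factor Myc, which pairs with Max and binds the E-box CACGTG, is known to drive many of these genes, while the Mxd proteins and Mxi1 compete with Myc for Max.

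Libraries held 6424874 to 9236153 counts in total, and 19.7% to 46.2% of these lay in 2 identifiers that the gene table does not name. Maf RNA ran against the genotype labels: it was 0 to 2.03 CPM (counts scaled by library size) in the 9 libraries labelled Cre-negative and 5.03 to 397 CPM in the 9 labelled Cre-positive. The labels do not say which sequence of Maf is floxed. Below, Cre-negative and Cre-positive name what a library's label says, and no direction below is a statement about loss of Maf. All 6 T cell markers (Cd3e, Cd3d, Cd3g, Cd4, Cd5 and Lck) were detected in every group, with summed levels of 1261 to 2633 CPM. Summed markers were 0 to 28.0 CPM for B cells (6 markers, Pax5 at 0 in all 18 libraries), 0 to 10.4 CPM for myeloid and dendritic cells (6 markers), 0 to 7.84 CPM for CD8 T cells (2 markers) and 9.82 to 52.8 CPM for NK and innate lymphoid cells (4 markers, Ncr1 at 0 in all 18). The 3 erythroid markers summed to 0 in rounded counts, and the 3 gamma delta T cell markers to 0 to 9.24 CPM.

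The E-box was looked for in the promoters first, because it is the element through which Myc is known to act. RefSeq promoter sequences of GRCm38.p6, running from 250 bases before to 50 bases after the start of transcription, were matched for 38 of the 44 members. A gene with several starts counts once, with the motif if any of its promoters holds it. CACGTG reads the same on both strands and was present in 8 of the 38 (21.1%), against 8.09% of all 27025 genes with a promoter and 11.8% of the 9011 tested genes with one. In the 250 bases before the start alone it was present in 3 of 38 (7.89%), against 6.86% of all genes and 9.98% of tested genes. In the longer window the members' share was above both of the others, and in the 250 bases before the start it lay between that of all genes and that of tested genes. The promoters had a median GC content of 59.7% in the members, 60.7% in the tested genes and 52.7% in all genes. For the 3 promoters with the motif before the start, these 250 bases are shown 5′ to 3′ on the gene's strand with CACGTG in capitals, since they are the only ones with a copy in that stretch. Rrn3, the factor that recruits RNA polymerase I, has 2 copies, and Imp4 (small subunit) and Nop2 (large subunit) have 1 each.
Rrn3, chr16:13780449-13780698, plus strand: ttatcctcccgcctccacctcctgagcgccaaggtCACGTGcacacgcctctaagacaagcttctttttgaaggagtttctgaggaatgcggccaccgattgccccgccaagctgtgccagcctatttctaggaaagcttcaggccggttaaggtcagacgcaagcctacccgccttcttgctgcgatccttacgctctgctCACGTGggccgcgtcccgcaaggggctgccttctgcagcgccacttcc
Imp4, chr1:34439579-34439828, plus strand: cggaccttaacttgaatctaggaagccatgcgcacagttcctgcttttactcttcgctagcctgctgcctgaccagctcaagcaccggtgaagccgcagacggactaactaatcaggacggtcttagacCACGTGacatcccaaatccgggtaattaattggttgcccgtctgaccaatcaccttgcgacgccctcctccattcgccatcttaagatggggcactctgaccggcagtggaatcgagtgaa
Nop2, chr6:125131633-125131882, plus strand: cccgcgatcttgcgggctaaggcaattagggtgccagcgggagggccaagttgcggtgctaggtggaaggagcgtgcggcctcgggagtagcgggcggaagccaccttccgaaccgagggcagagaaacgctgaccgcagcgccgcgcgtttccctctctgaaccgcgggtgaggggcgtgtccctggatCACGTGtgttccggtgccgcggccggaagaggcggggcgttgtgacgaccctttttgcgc
The other 5 members carry it within 50 bases after the start, and 30 bases around it are shown for each.
Utp20, chr10:88826765-88826794, minus strand: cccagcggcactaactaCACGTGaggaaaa
Wdr43, chr17:71616220-71616249, plus strand: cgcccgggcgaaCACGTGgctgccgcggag
Ltv1, chr10:13193092-13193121, minus strand: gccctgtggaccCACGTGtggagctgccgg
Tsr1, chr11:74898092-74898121, plus strand: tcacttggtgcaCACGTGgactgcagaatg
Pes1, chr11:3963965-3963994, plus strand: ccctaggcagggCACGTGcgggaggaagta
The 8 genes are 1 of the polymerase I group, 5 of the small subunit group and 2 of the large subunit group. None of them passed the threshold in any comparison, and none of the 7 members that did holds these letters in this window. A match is a description of the sequence, and no binding was measured.

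Ribosome biogenesis genes as a group were at their highest in the TfhA libraries labelled Cre-negative. The 44 genes summed to 3988, 4223 and 4507 CPM there, in libraries 2, 4 and 5, and to at most 3932 CPM in the other 15 libraries. Ncl and Npm1, abundant nucleolar proteins, made up 28.5% to 45.6% of this sum. Without these 2 genes the sums were 2590, 2742 and 2894 CPM, against a highest value of 2448 CPM elsewhere (CrePos TfhA, library 3), so the group did not overlap with any other. In descending order, the group means of this sum were those of Cre-negative TfhA (2742 ± 152 CPM, SD, n = 3), Cre-negative Tfh5 (2208 ± 185), Cre-positive TfhA (2203 ± 212), Cre-positive Tfh5 (1869 ± 126), Cre-negative Tfh1 (1857 ± 47.2) and Cre-positive Tfh1 (1705 ± 75.4). Among the later neighbours in that order, the libraries of Cre-positive TfhA (2068 to 2448 CPM) and Tfh5 (1726 to 1964) did not overlap, nor did those of Cre-negative and Cre-positive Tfh1 (1824 to 1911 and 1626 to 1777). The other neighbours overlapped. Ncl and Npm1 together had a different order, with 1398 to 1613 CPM in Cre-negative TfhA, overlapping the 784 to 1538 CPM of the other groups.

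**Figure D1:**
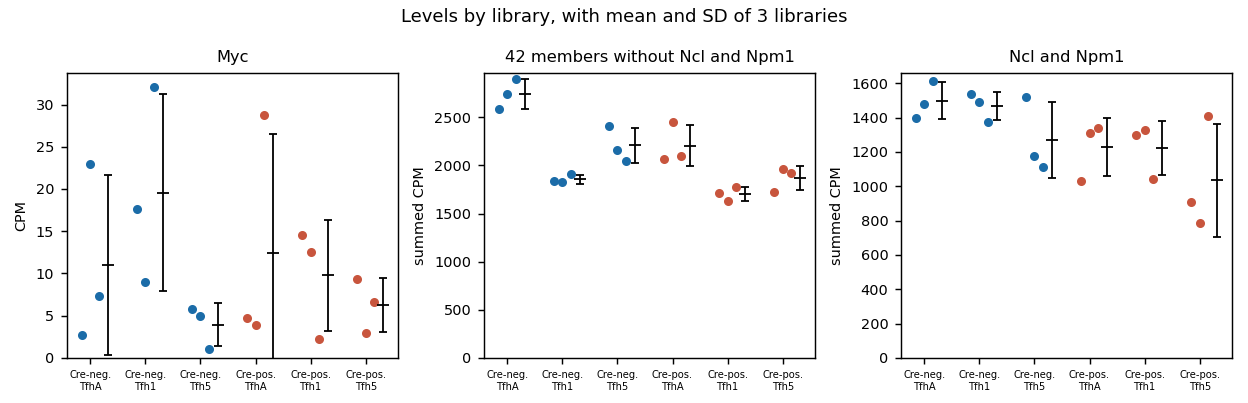
Levels in CPM (vertical axis, from 0) by group (horizontal axis) for Myc, for the sum of the 42 members other than Ncl and Npm1, and for the sum of Ncl and Npm1. Points are libraries in the order of their numbers, bars are the mean and SD of 3 libraries, and blue and red mark the Cre-negative and Cre-positive labels; the summed 42 genes are at 2590 to 2894 CPM in Cre-negative TfhA and at most at 2448 CPM elsewhere.

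The same picture came from a measure in which each gene counts alike. The median over the 44 genes of the log2 deviation from each gene's own mean was 0.40 to 0.63 in Cre-negative TfhA and at most 0.29 in the other 15 libraries. It was -0.16 to -0.04 in Cre-negative Tfh1, 0.02 to 0.14 in Cre-negative Tfh5, -0.10 to 0.29 in Cre-positive TfhA, -0.27 to -0.11 in Cre-positive Tfh1 and -0.22 to 0.02 in Cre-positive Tfh5. The share of counts in the 2 unnamed identifiers and the mitochondrial share had ranges in Cre-negative TfhA that overlapped those elsewhere. The 2 unnamed identifiers held 19.7% to 33.7% of counts in Cre-negative TfhA, against 33.1% to 43.0% in the other Cre-negative groups and 27.4% to 46.2% in the Cre-positive groups. Mitochondrial transcripts were 6.01% to 7.14% of counts in Cre-negative TfhA and 3.76% to 7.27% elsewhere. Within the Cre-negative label, the sum of the 5 activation markers (Il2ra, Cd44, Cd69, Nr4a1 and Irf4) was lowest in TfhA, where the members were highest. It was at 678 to 762 CPM in TfhA, 1069 to 1231 in Tfh1 and 1190 to 1304 in Tfh5. In Tfh5 minus TfhA the single markers went both ways. EdgeR called Il2ra (log2 fold change 1.27 ± 0.18, adjusted p 7.88e-06) and Irf4 (0.75 ± 0.23, 0.0465, overlapping libraries) higher. Nr4a1 was called lower (-2.96 ± 0.75, adjusted p 0.0124, edgeR). Summed T cell markers were at 1261 to 1282 CPM in Cre-negative TfhA, below the 1287 to 1610 CPM in Tfh1 and 1445 to 1665 CPM in Tfh5 of that label. In Tfh5 minus TfhA, edgeR called Cd3d higher (0.74 ± 0.19, adjusted p 0.0136) but Cd4 lower (-1.48 ± 0.23, adjusted p 2.84e-05). NK and innate lymphoid markers were at 9.82 to 22.1 CPM in TfhA, below 25.1 to 52.8 in Tfh1 and 24.4 to 31.9 CPM in Tfh5. Of these 4 markers, 2, 1 and 1 were above 0. The B cell markers were at 11.2 to 23.8, 15.8 to 25.1 and 2.71 to 11.0 CPM in these 3 groups, with 2, 3 and 1 of 6 above 0. The myeloid markers were at 0 to 2.97, 0 to 4.62 and 4.54 to 10.4 CPM. The part of these measures in the levels was not tested. In bulk RNA, fewer cells of one kind and less RNA per cell cannot be told apart.

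**Figure D2:**
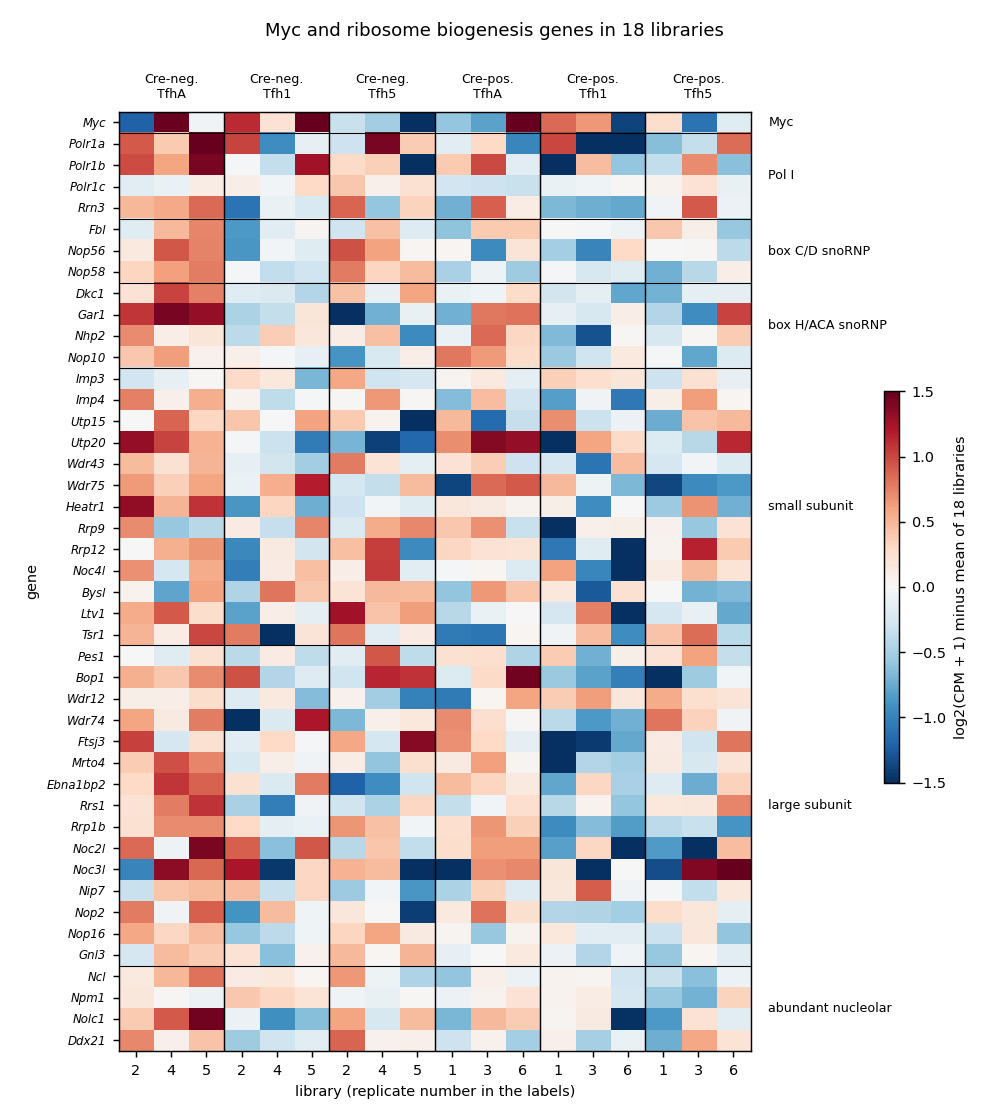
Each row is 1 of the 44 genes, ordered by role, and each column 1 of 18 libraries, ordered by group and number. Colour is log2(CPM + 1) minus the gene's mean over the 18 libraries, limited to 1.5 either way; the Cre-negative TfhA columns are mostly red, with medians of 0.40 to 0.63, and Myc has no common colour within most groups.

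Myc itself varied widely between libraries of the same group. In libraries 2, 4 and 5 labelled Cre-negative, Myc was at 2.7, 23.0 and 7.29 CPM in TfhA, at 17.7, 8.98 and 32.02 CPM in Tfh1 and at 5.83, 4.99 and 1.004 CPM in Tfh5. In libraries 1, 3 and 6 labelled Cre-positive, it was at 4.75, 3.93 and 28.7 CPM in TfhA, at 14.5, 12.5 and 2.28 CPM in Tfh1 and at 9.37, 2.99 and 6.59 CPM in Tfh5. TfhA under either label held 1 library with over 20 CPM beside others under 8 CPM. These levels rest on 6 to 240 counts per library. By group mean the order was Cre-negative Tfh1, Cre-positive TfhA, Cre-negative TfhA, Cre-positive Tfh1, Cre-positive Tfh5 and Cre-negative Tfh5, and all neighbours overlapped. The median coefficient of variation within a group was 66.3% for Myc and 29.7% over the 44 genes.

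Myc passed the threshold (Benjamini-Hochberg adjusted p under 0.05 in edgeR's quasi-likelihood test) in none of 13 comparisons. It had an unadjusted p under 0.05 in 1, Tfh5 minus Tfh1 in the Cre-negative label, where the 3 Tfh5 libraries were all below the 3 Tfh1 libraries (log2 fold change -2.30 ± 0.98 SE, adjusted p 0.406). DESeq2 gave an adjusted p of 0.22 there, and the edgeR 95% interval was -4.22 to -0.38. Other intervals were wide: -3.35 to 0.40 for Tfh5 minus TfhA and -1.003 to 2.66 for Tfh1 minus TfhA in the Cre-negative label, and -2.83 to 0.86 for Tfh5 minus TfhA in the Cre-positive label. The label effect in TfhA was 0.18, and it was -1.34 without Cre-positive library 6 and 1.35 without Cre-negative library 4.

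By comparison, 0% to 4.55% of the members were called, against 0% to 5.39% of tested genes in either direction. Over the 13 comparisons there were 10 calls among the 44 genes, all of them lower and none higher. They fell in 7 genes: Dkc1, Gar1, Nop10, Nop58, Ebna1bp2, Rrp1b and Ncl. Of these, 4 belong to the nucleolar ribonucleoproteins that modify ribosomal RNA: Dkc1, the pseudouridine synthase dyskerin, its box H/ACA partners Gar1 and Nop10, and Nop58, a core protein of the box C/D particles. Ebna1bp2 and Rrp1b act in large subunit assembly, and Ncl is nucleolin. Many reads were counted in parts: these genes had fractional counts in 13 of 18 libraries for Dkc1, 17 for Ncl, 10 each for Nop10 and Rrp1b, 6 for Nop58 and 2 each for Gar1 and Ebna1bp2. Some of their counts may be shared with copies elsewhere in the genome.

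**Figure D3:**
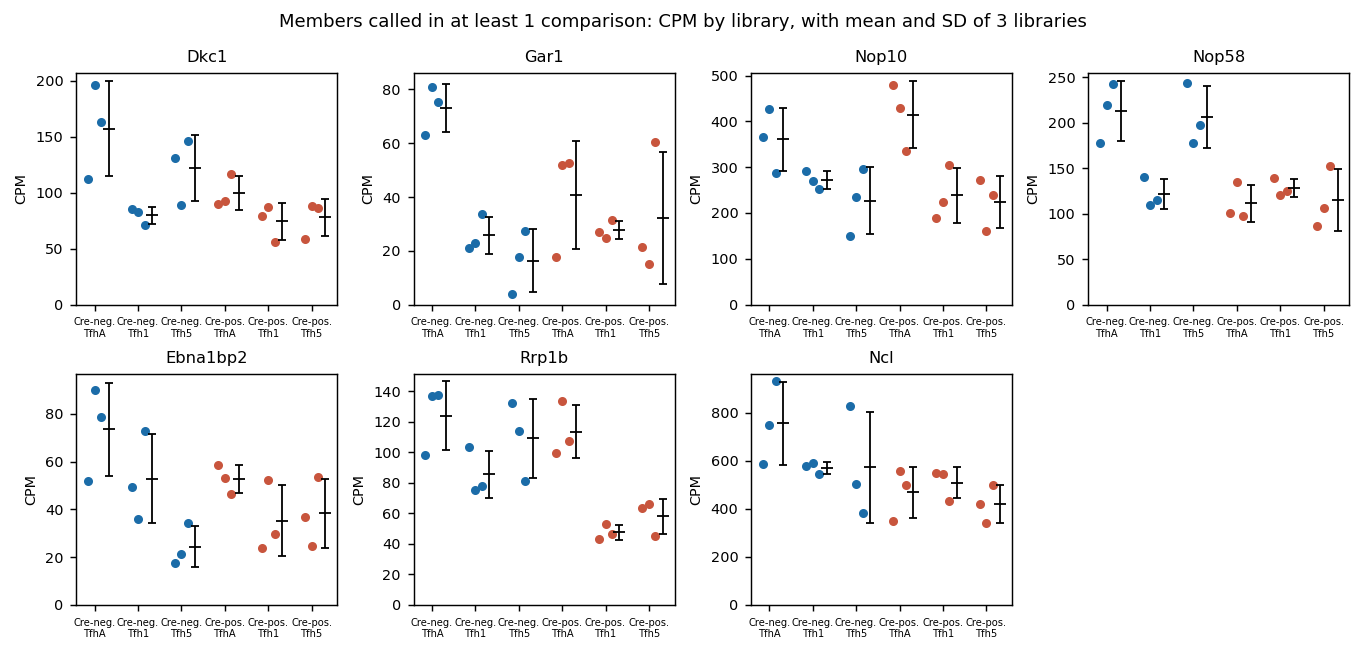
CPM (vertical axis, from 0) by group (horizontal axis) for the 7 genes that passed the threshold in at least 1 comparison. Points are libraries in the order of their numbers, and bars are the mean and SD of 3 libraries; Gar1 is at 63.2 to 80.9 CPM in Cre-negative TfhA and at 4.02 to 27.3 CPM in Cre-negative Tfh5.

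In the libraries labelled Cre-negative, Dkc1 was lower in Tfh1 than in TfhA. It was at 112, 196 and 163 CPM in TfhA and at 85.2, 83.0 and 70.8 CPM in Tfh1. The lowest TfhA library was above all Tfh1 libraries, and the log2 fold change was -0.98 ± 0.27 (SE, n = 3 against 3, adjusted p 0.0387, edgeR). Dkc1 was the only member called, 2.27% of the 44, against 0.733% of the 11735 tested genes called lower and 2.23% in either direction. Nolc1, a nucleolar phosphoprotein, had -1.53 ± 0.44 (adjusted p 0.0537) and Nop58 had -0.81 ± 0.23 (adjusted p 0.0543). The call for Dkc1 was lost without TfhA library 4 or 5 or any 1 of the Tfh1 libraries (adjusted p 0.104 to 0.305).

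The count of genes whose libraries did not overlap was larger. It was 15 of 44 lower in Tfh1 (34.1%) and 1 higher, against 12.2% and 10.4% of tested genes. The 15 were Rrn3; Nop56 and Nop58; Dkc1 and Gar1; Imp4, Utp20, Wdr43, Heatr1 and Ltv1 of the small subunit; Mrto4, Rrs1 and Nop16 of the large subunit; and Nolc1 and Ddx21. Ddx21, an RNA helicase of the nucleolus, was at 212, 136 and 173 CPM in TfhA and at 88.3, 104 and 115 CPM in Tfh1. Heatr1, a factor of early small subunit processing, was at 63.7, 35.6 and 53.8 CPM against 13.04, 31.4 and 14.5 CPM. Npm1, nucleophosmin, was the member with higher values in Tfh1, at 961, 898 and 833 CPM against 812, 733 and 679 CPM. By log2 fold change 37 of 44 were below 0, with a median of -0.50 against -0.05 over all tested genes. By role the medians were -0.76 for the 4 polymerase I genes, -0.81 for the 3 box C/D genes, -0.69 for the 4 box H/ACA genes, -0.52 for the 13 small subunit genes and -0.36 for the 15 large subunit genes. Each of the 15 large subunit genes was below 0.

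In Tfh5 against TfhA, still in the Cre-negative label, Gar1 and Ebna1bp2 were lower. Gar1 was at 63.2, 80.9 and 75.2 CPM in TfhA and at 4.02, 17.5 and 27.3 CPM in Tfh5, with a log2 fold change of -2.17 ± 0.53 (adjusted p 0.00916, edgeR). Its highest Tfh5 library held less than the lowest TfhA library, and the call held without each of the 6 libraries in turn (adjusted p 0.00370 to 0.0454). Ebna1bp2 was at 51.8, 89.9 and 78.8 CPM in TfhA and at 17.6, 21.5 and 34.1 CPM in Tfh5 (log2 fold change -1.59 ± 0.38, adjusted p 0.00738). The groups did not overlap here either, and the adjusted p was 0.0592 without TfhA library 4. These 2 calls are 4.55% of the members, against 1.91% of tested genes called lower and 5.08% called in either direction. Nop10 came next (-0.67 ± 0.23, adjusted p 0.104), with overlapping libraries.

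Libraries of 7 genes did not overlap and were lower in Tfh5 (15.9%, against 13.9% of tested genes), and none was higher (against 10.7%). The 7 were Polr1b, Gar1, Utp20, Heatr1, Wdr12, Mrto4 and Ebna1bp2. Here 34 of 44 log2 fold changes were below 0, with a median of -0.37 against -0.09 over all genes. The 3 box C/D genes, with a median of -0.07, were near the median of all genes, while the 15 large subunit genes had -0.65 and the 4 box H/ACA genes -0.52. With library sizes that leave out the 2 unnamed identifiers, in place of TMM, the median of all genes moved by -0.15 in Tfh1 and -0.22 in Tfh5 against TfhA, and the members moved with it.

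Under the Cre-positive label the TfhA libraries again had the higher values for Rrp1b, a large subunit factor. Rrp1b was at 99.7, 133 and 107 CPM in TfhA, at 43.0, 52.9 and 46.4 CPM in Tfh1 and at 63.2, 65.95 and 44.8 CPM in Tfh5. No Tfh1 or Tfh5 library reached the lowest TfhA library. The log2 fold change was -1.26 ± 0.26 in Tfh1 (adjusted p 0.00383, edgeR), called without each library in turn (adjusted p 0.0051 to 0.0409), and -0.97 ± 0.26 in Tfh5 (adjusted p 0.0193). The Tfh5 call was lost without TfhA library 3 (adjusted p 0.129) or Tfh5 library 6 (0.135), and in a fit of the compared groups alone (0.0547). Both contrasts share the TfhA libraries. Marker sums differed between these groups as well. T cell markers were at 1284 to 1690 CPM in Cre-positive TfhA, 2262 to 2633 in Tfh1 and 2061 to 2473 in Tfh5. B cell markers were at 7.12 to 28.0, 0 to 0.163 and 0 to 1.82 CPM. Of these 6 markers, 3, 1 and 2 were above 0 in the 3 groups. Only Ebf1 was called, lower in Tfh1 (-9.81 ± 1.52) and in Tfh5 (-7.09 ± 1.23). NK and innate lymphoid markers were at 12.4 to 19.5, 25.9 to 42.003 and 14.9 to 29.1 CPM, with 1, 2 and 2 of 4 markers above 0. The part of these marker sums in the contrasts was not tested.

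Rrp1b was the only call in Tfh1 minus TfhA, 2.27% of the members against 0.997% of tested genes called lower and 2.57% in either direction. Nop10 (-0.80 ± 0.23, adjusted p 0.0585) and Ftsj3, a methyltransferase of large subunit assembly (-1.77 ± 0.52, adjusted p 0.0593), came next. Ftsj3 was at 34.5, 26.1 and 19.0 CPM in TfhA and at 4.35, 7.12 and 11.9 CPM in Tfh1, with no overlap. Libraries of 10 genes did not overlap and were lower in Tfh1 (22.7%, against 9.76% of tested genes), and those of Polr1c and Imp3 were higher (4.55%, against 9.06%). The 10 were Dkc1, Nop10, Utp20, Rrp12, Bop1, Wdr74, Ftsj3, Mrto4, Rrp1b and Nop2, so 6 of them belong to the 15 large subunit genes. The median was -0.39 over the members, -0.67 over the large subunit genes and -0.06 over all tested genes.

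In Tfh5 minus TfhA in the Cre-positive label, Nop10 was called besides Rrp1b. It was at 479, 430 and 335 CPM in TfhA and at 271, 161 and 238 CPM in Tfh5, with no overlap and a log2 fold change of -0.89 ± 0.23 (adjusted p 0.0152, edgeR). The call was lost without TfhA library 1 (adjusted p 0.0829) or 3 (0.0526) or Tfh5 library 3 (0.122). The 2 calls are 4.55% of the members, against 3% of tested genes called lower and 5.39% in either direction, and the median was -0.17 against -0.05. Libraries of 3 genes did not overlap and were lower (6.82%, against 11.6% of tested genes), and 2 were higher (4.55%, against 9.78%). All 4 box H/ACA genes were below 0, with log2 fold changes of -0.89 to -0.33. Wdr75, a factor of early small subunit processing, had -1.60 ± 0.58 (adjusted p 0.115).

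Against TfhA under both labels, 15 members were below 0 in all 4 contrasts: Polr1b, Fbl, the 4 box H/ACA genes, Utp20, Wdr43, Heatr1, Mrto4, Ebna1bp2, Rrp1b, Noc2l, Nop2 and Nolc1. Polr1c, a subunit that RNA polymerases I and III share, was above 0 in all 4. The contrasts of a label share their TfhA libraries, so these counts are a description only.

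**Figure D4:**
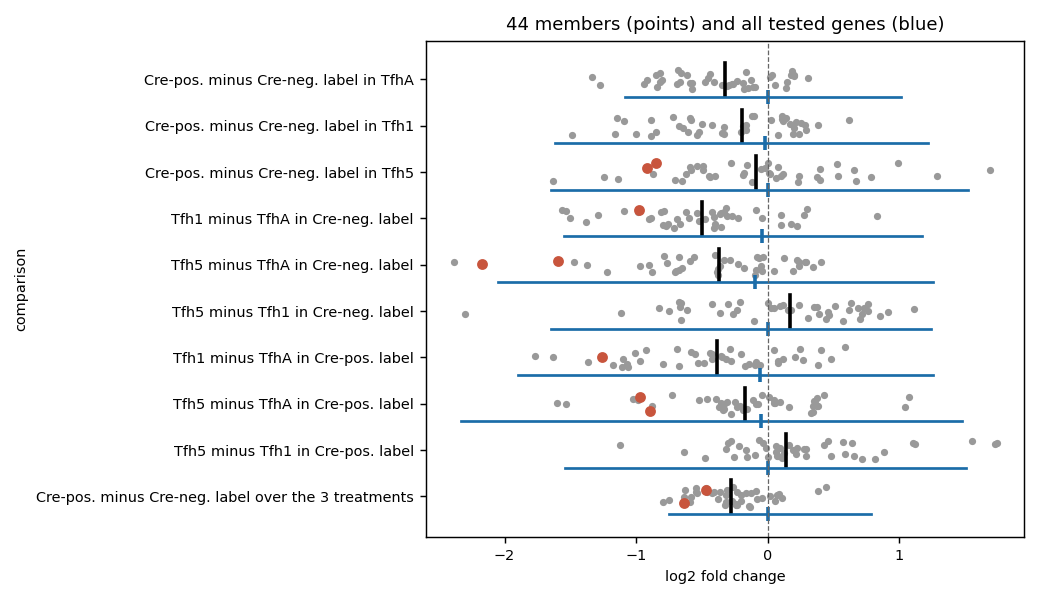
Log2 fold change (horizontal axis) of the 44 genes in 10 comparisons (vertical axis). Points are genes, red where called at an adjusted p under 0.05, black bars are the median of the 44, and blue lines and ticks run from the 10th to the 90th percentile of all tested genes with their median; the black bars lie between -0.50 and -0.17 in the 4 contrasts against TfhA and at 0.17 and 0.14 in Tfh5 minus Tfh1.

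Between Tfh5 and Tfh1 no member was called by edgeR under either label. In the Cre-negative label the background was 0.554% of tested genes, 8 members had an unadjusted p under 0.05 (6 higher and 2 lower in Tfh5; 18.2%, against 10.4% of tested genes), and DESeq2 called none. Nop58 was at 140, 110 and 115 CPM in Tfh1 and at 244, 178 and 198 CPM in Tfh5, with no overlap (0.76 ± 0.23, adjusted p 0.136). Ebna1bp2 had -1.11 ± 0.38 (adjusted p 0.209) and Ddx21 0.72 ± 0.28 (adjusted p 0.325). Libraries of 6 members were all higher (13.6%, against 7.57% of tested genes) and of 3, Myc among them, all lower (6.82%, against 8.42%). All 3 box C/D genes were above 0, with a median of 0.76.

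In the Cre-positive label the background was 1.76%, and DESeq2 called 1 member. An unadjusted p under 0.05 was reached by 5 members, all higher in Tfh5, and this share of 11.4% was below the 12.7% of tested genes. Ftsj3 was at 23.0, 16.9 and 37.3 CPM in Tfh5, all above its 3 Tfh1 libraries (1.73 ± 0.52, adjusted p 0.0912). Rrp12, a small subunit export factor, had 1.56 ± 0.61 (adjusted p 0.266) and Rrn3 1.10 ± 0.45 (adjusted p 0.291). Libraries of 8 members were all higher (18.2%, against 7.22% of tested genes) and of 1 all lower (2.27%, against 8.14%). The median was 0.14, with 30 of 44 above 0.

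Between the labels, values of this gene group summed over the conditions were mostly lower under the Cre-positive label. In counts summed over the 3 conditions for each number, 37 of 44 log2 fold changes were below 0, with a median of -0.27 against 0 over all tested genes. Nop58 was called: its sums were at 192, 177 and 193 CPM for the Cre-negative numbers 2, 4 and 5 and at 114, 122 and 126 CPM for the Cre-positive numbers 1, 3 and 6 (-0.63 ± 0.13, adjusted p 0.0178, edgeR). Ncl was called as well, at 675, 633 and 677 CPM against 462, 488 and 487 CPM (-0.47 ± 0.11, adjusted p 0.0473). Neither gene overlapped between the labels. The 2 calls are 4.55% of the members, against 0.59% of 11693 tested genes called lower and 1.68% in either direction.

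Sums of 12 members did not overlap and were lower (27.3%, against 9.83% of tested genes), and that of Wdr12 was higher (2.27%, against 9.82%). The 12 were Polr1a, Polr1c, Nop56, Nop58, Dkc1, Wdr43, Heatr1, Ltv1, Rrp1b, Nop16, Gnl3 and Ncl. Dkc1 had -0.54 ± 0.15 (adjusted p 0.0782). Both calls were lost when any 1 of the 6 numbers was left out, with adjusted p of 0.05002 to 0.0967 for Nop58 and 0.0820 to 0.168 for Ncl.

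Within conditions, members were called between the labels in Tfh5, namely Nop58 and Rrp1b, 4.55% of the members against 2.05% of tested genes called lower and 3.24% in either direction. Nop58 in Tfh5 was at 244, 178 and 198 CPM in the Cre-negative libraries and at 86.1, 106 and 152 CPM in the Cre-positive libraries (-0.84 ± 0.23, adjusted p 0.0326). Rrp1b was at 132, 114 and 81.3 CPM and at 63.2, 65.95 and 44.8 CPM (-0.91 ± 0.26, adjusted p 0.0440). Neither overlapped. Nop58 was not called without Cre-negative library 2 (adjusted p 0.137) or 5 (0.0592) or Cre-positive library 1 (0.213) or 3 (0.105). Rrp1b was called without Cre-negative library 5, and not without any of the other 5 (0.0545 to 0.230). Dkc1 had -0.65 ± 0.27 (adjusted p 0.228). The median of the members was -0.09 against 0, and 0.01 with library sizes that leave out the 2 unnamed identifiers. Libraries of 7 members did not overlap and were lower (15.9%, against 8.62% of tested genes), and those of Utp20 and Wdr12 were higher (4.55%, against 7.98%). Other measures differed between these groups too. The 5 activation markers summed to 1190 to 1304 CPM in the Cre-negative and 653 to 739 CPM in the Cre-positive Tfh5 libraries. Of these markers, Il2ra (-1.68 ± 0.18) and Cd44 (-0.74 ± 0.21) were called lower and Nr4a1 (3.66 ± 0.77) higher. The 6 T cell markers summed to 1445 to 1665 and 2061 to 2473 CPM. The 6 B cell markers summed to 2.71 to 11.0 and 0 to 1.82 CPM, with 1 and 2 of them above 0. Only Ebf1 was called (-6.13 ± 1.20, adjusted p 0.00156, edgeR). The part of these measures in the label effect was not tested.

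In TfhA no member and no gene at all was called between the labels by edgeR (0% of tested genes), 5 members had an unadjusted p under 0.05, all lower in the Cre-positive libraries (11.4%, against 5.16% of tested genes), and DESeq2 called no member. Nop58 had -0.94 ± 0.23 (adjusted p 0.214), Ncl -0.69 ± 0.22 (0.705) and Dkc1 -0.66 ± 0.26 (0.910). Nop58 was at 178, 219 and 243 CPM in the Cre-negative libraries and at 101, 135 and 97.7 CPM in the Cre-positive libraries. Libraries of 10 members did not overlap and were lower (22.7%, against 6.82% of tested genes), and none was higher (against 6.15%). The median was -0.33. In Tfh1 no member was called by edgeR or DESeq2, and 0.852% of tested genes were called. An unadjusted p under 0.05 was reached by 3 members, all lower, a share of 6.82% that was below the 10.6% of tested genes. Rrp1b had -0.85 ± 0.26 (adjusted p 0.147), Ftsj3 -1.48 ± 0.52 (0.241) and Mrto4, a large subunit factor, -0.72 ± 0.34 (0.464). Libraries of 5 members did not overlap and were lower (11.4%, against 8.53%) and of 1 higher (2.27%, against 7.73%).

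Nop58 thus had Cre-negative values of 178 to 244 CPM in TfhA and Tfh5 and of 110 to 140 CPM in Tfh1, where the Cre-positive libraries were at 120.1 to 140 CPM. Whether the label effect differed between conditions was tested directly. No member was called by edgeR or DESeq2 in the 3 differences of label effects, where the background was 0.239% (Tfh1 and TfhA), 1.19% (Tfh5 and TfhA) and 0.0597% (Tfh5 and Tfh1) of tested genes, and 3, 3 and 2 members had an unadjusted p under 0.05. These shares of 6.82%, 6.82% and 4.55% were below the 7.04%, 10.9% and 8.45% of tested genes. Nop58 had 1.02 ± 0.33 for Tfh1 minus TfhA (adjusted p 0.368) and -0.92 ± 0.33 for Tfh5 minus Tfh1 (0.415). Next for Tfh1 minus TfhA were Ddx21 with 0.84 ± 0.39 (0.686) and Nop16, a large subunit factor, with 0.87 ± 0.43 (0.709). For Tfh5 minus TfhA, Gar1 had 1.83 ± 0.72 (0.274), Ebna1bp2 1.13 ± 0.53 (0.413) and Rrp1b -0.79 ± 0.37 (0.414). For Tfh5 minus Tfh1, Ebna1bp2 had 1.24 ± 0.53 (0.516) and Nop16 -0.87 ± 0.43 (0.595).

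The list of the Myc network held 13 genes: Mycn, Mycl, Max, Mxd1, Mxd3, Mxd4, Mxi1, Mnt, Mlx, Mlxip, Mga, Zbtb17 and Fbxw7. All but Mycn and Mycl, 11 genes, were tested. In the Cre-negative label edgeR called 3 of them in Tfh1 minus TfhA (27.3%, against 2.23% of tested genes) and 1 in Tfh5 minus TfhA (9.09%, against 5.08%). In the other 11 comparisons edgeR called none, but in Tfh5 minus TfhA in the Cre-positive label, where 3 had an unadjusted p under 0.05, DESeq2 called 2 (Mxd4 and Fbxw7), and edgeR called Mxd4 without the filter on low counts and with the replicate block. Mxd1, an antagonist that pairs with Max, was at 48.3, 49.5 and 33.4 CPM in TfhA, at 79.4, 131 and 85.8 CPM in Tfh1 and at 89.97, 119 and 104 CPM in Tfh5. It was higher than in TfhA in Tfh1 (1.17 ± 0.28, adjusted p 0.0138) and in Tfh5 (1.25 ± 0.28, adjusted p 0.00370), with no overlap. Mxi1, another antagonist, was at 17.8, 30.5 and 34.3 CPM in TfhA and at 54.5, 76.9 and 80.8 CPM in Tfh1 (1.36 ± 0.34, adjusted p 0.0201). Max was at 103, 109 and 101 CPM in TfhA and at 56.6, 42.5 and 50.1 CPM in Tfh1 (-1.07 ± 0.28, adjusted p 0.0301). The other antagonists in this contrast were not called: Mxd4 had a log2 fold change of 3.00, Mnt 0.11, Mga -0.55 and Mxd3 -1.24, the last 3 with overlapping libraries. Mxd1 in Tfh5 was called without each library in turn; Mxd1 in Tfh1 was lost without TfhA library 5 (adjusted p 0.140) or Tfh1 library 4 (0.191), Mxi1 without TfhA library 2 (0.165) or Tfh1 library 4 (0.0964) or 5 (0.0941), and Max without any 1 of the 6 libraries (0.0692 to 0.194). In Tfh1 minus TfhA in the Cre-positive label, Mxd1 had 0.83 ± 0.28 (adjusted p 0.114), Mxi1 0.47 ± 0.33 (0.601) and Max 0.07 ± 0.28 (0.984). The difference of the label effects between Tfh1 and TfhA did not pass the threshold for Max (1.14 ± 0.39, adjusted p 0.464), Mxi1 (-0.89 ± 0.47, 0.758) or Mxd1 (-0.34 ± 0.39, 1).

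**Figure D5:**
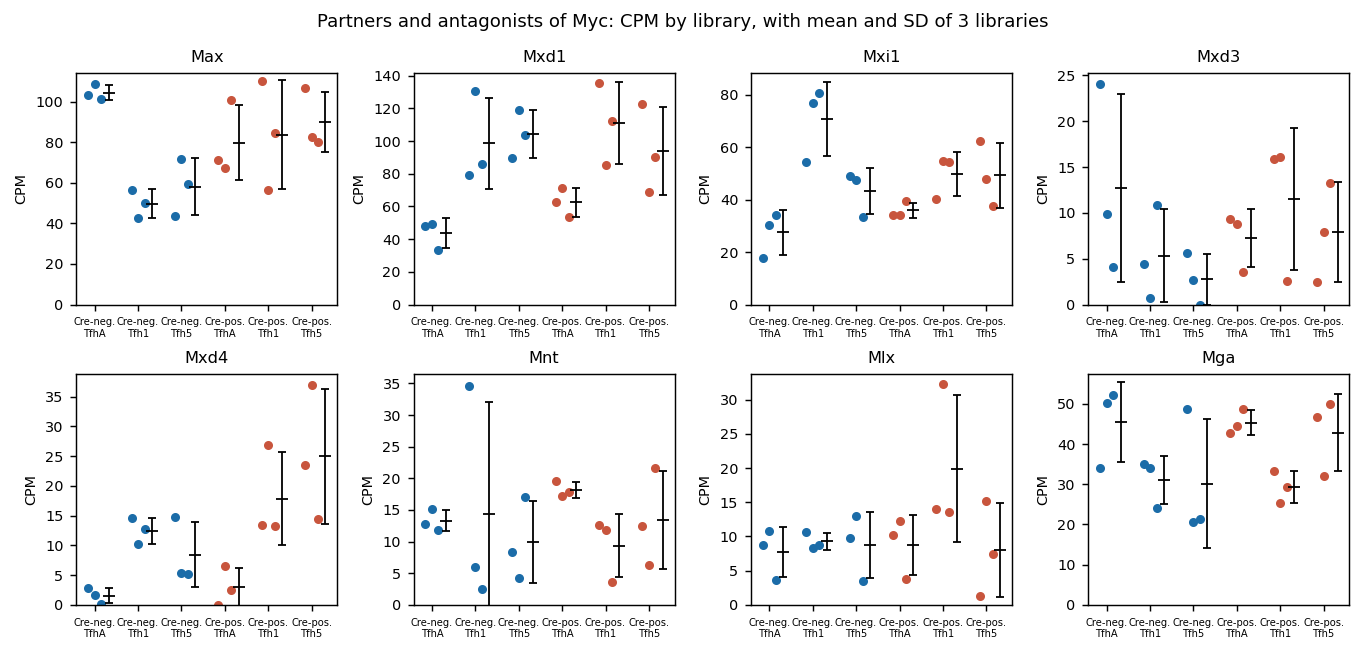
CPM (vertical axis, from 0) by group (horizontal axis) for Max and 7 other genes of the Myc network. Points are libraries in the order of their numbers, and bars are the mean and SD of 3 libraries; in the Cre-negative label Mxd1 is at 33.4 to 49.5 CPM in TfhA and at 79.4 CPM or more in Tfh1 and Tfh5.

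Mxd4, a further antagonist, was at 0.20 to 2.84 CPM in Cre-negative TfhA and at 0 to 6.45 CPM in Cre-positive TfhA. It was at 5.19 to 14.8 CPM in the Cre-negative and at 13.2 to 37.0 CPM in the Cre-positive Tfh1 and Tfh5 libraries. Its libraries did not overlap in any of the 4 contrasts against TfhA, and its adjusted p was 0.118, 0.173, 0.182 and 0.0626.

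Of 97 tested further ribosome biogenesis genes, edgeR called 3 higher and 1 lower in Tfh5 minus TfhA in the Cre-negative label (4.12%, against 5.08% of tested genes), with a median of -0.14. Nsa2, a large subunit factor, was higher (1.21 ± 0.21, adjusted p 0.000148) and Bms1, a GTPase of the small subunit processome, was lower (-1.74 ± 0.37, adjusted p 0.00226), and both were called without each library in turn. Bms1 was at 75.1, 72.3 and 114 CPM in TfhA and at 28.3, 29.6 and 20.2 CPM in Tfh5. Exosc8, a subunit of the RNA exosome, was higher (0.92 ± 0.21, adjusted p 0.00473, and 0.0506 without TfhA library 2), as was Nop53, which recruits the exosome (0.78 ± 0.21, adjusted p 0.0174, lost without TfhA library 2 or 5, up to 0.145). None of the 97 was called in Tfh1 minus TfhA under either label by edgeR, and DESeq2 called 1 in each. At an unadjusted p under 0.05 there were 11 and 9 (11.3% and 9.28%), below the 12.1% and 14.0% of tested genes. In Tfh5 minus TfhA in the Cre-positive label 2 were called, Exosc8 and Nol8, both higher (2.06%, against 5.39% of tested genes). They were lost in 4 and 6 of 6 fits with 1 library left out. In the sums over conditions 2 were called, Lyar and Gtpbp4, both lower (2.06%, against 1.68%). Gtpbp4 was lost without any 1 of the 6 numbers. Lyar, a nucleolar protein, was lower in the Cre-positive label (-0.96, adjusted p 0.00551) and was called without each number in turn. The median of the 97 there was -0.20, with 68 below 0. In the label effect in Tfh5, Lyar was the 1 gene of the 97 called (1.03%, against 3.24% of tested genes). It was lower (-1.16 ± 0.28, adjusted p 0.0114, edgeR), and the call was lost in 3 of 6 fits with 1 library left out. Of the 8 tested further polymerase I genes, 1 (12.5%, against 5.08% of tested genes), Tcof1, treacle, was called lower in Tfh5 minus TfhA in the Cre-negative label (-1.24 ± 0.33, adjusted p 0.0162). That call was lost without TfhA library 5 or Tfh5 library 2 or 4 (adjusted p up to 0.116). In the label effect in Tfh5, 1 of the 8 was called (12.5%, against 3.24% of tested genes), Taf1d. It was lower (-0.92 ± 0.24, adjusted p 0.0216, edgeR), and the call was lost in 3 of 6 fits with 1 library left out.

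Of 29 other known Myc targets, 5 were called lower by edgeR in the label effect in Tfh5. This is 17.2%, against 2.05% of tested genes called lower and 3.24% in either direction. DESeq2 called 7. The 5 were Tfrc, the transferrin receptor, Nme2, a nucleoside diphosphate kinase (-0.93 ± 0.18, adjusted p 0.00118), Hspd1, a mitochondrial chaperone (-1.15 ± 0.26, 0.00585), Pa2g4 (-0.70 ± 0.20, 0.0457) and Ccnd2, cyclin D2 (-0.63 ± 0.18, 0.0463). Tfrc and Nme2 were called without each library in turn, and Hspd1, Ccnd2 and Pa2g4 were lost in 1, 3 and 5 of 6 such fits. In the contrasts against TfhA the calls were 2 (Hspd1 and Ranbp1, both lower; 6.90%, against 2.23% of tested genes) in Tfh1 and 2 (C1qbp lower, Nme2 higher; 6.90%, against 5.08%) in Tfh5 of the Cre-negative label. They were 3 (Tfrc, Ccnd2 and Hspd1, all lower; 10.3%, against 2.57%) in Tfh1 and 2 (Tfrc and Ccnd2, both lower; 6.90%, against 5.39%) in Tfh5 of the Cre-positive label. Nme2 in Cre-negative Tfh5 thus went the other way, with a log2 fold change of 0.93 ± 0.18 (adjusted p 0.000768). The label effect gave 1 call in Tfh1 (Tfrc, 3.45%, against 0.852% of tested genes). It gave 2 in the sums (Tfrc and Hspd1, both lower, 6.90%, against 1.68%). Against TfhA in the Cre-negative label, Hspd1, Ranbp1 and C1qbp were lost in 3, 6 and 4 of 6 fits with 1 library left out. In Cre-positive Tfh1, Ccnd2 and Hspd1 were lost in 6 and 5 such fits. The other calls against TfhA and Tfrc in the Tfh1 label effect held in each. Tfrc in the sums was lost without any 1 of the 6 numbers (adjusted p 0.0650 to 0.165, edgeR).

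Tfrc had calls in the most comparisons. It was at 393, 476 and 512 CPM in Cre-positive TfhA, at 139, 141 and 191 CPM in Cre-positive Tfh1 and at 76.3, 131 and 142 CPM in Cre-positive Tfh5. The Cre-negative libraries were all at 306 to 474 CPM. Tfrc was lower in the Cre-positive label in Tfh1 (-1.31 ± 0.21, adjusted p 0.000381) and in Tfh5 (-1.48 ± 0.21, adjusted p 1.87e-05). The label effect in Tfh5 differed from that in TfhA (-1.54 ± 0.30, adjusted p 0.00254), also without each of 12 libraries in turn. Hspd1 was lower in the Cre-positive label in the sums (-1.05, adjusted p 0.00522), again without each number in turn. The list's median was -0.25 there, beside -0.27 for the 44 genes.

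The members differed in their spread within groups. The median coefficient of variation within a group ran from 9.80% for Npm1 and 10.8% for Polr1c to 82.6% for Noc3l, a large subunit factor, and 6 of the 44 genes were above 50%: Noc2l, Bop1, Polr1a, Myc, Polr1b and Noc3l. These 6 had mean levels of 4.96 to 18.1 CPM over the 18 libraries. The 7 genes with a call had spreads of 15.9% (Nop58) to 37.9% (Gar1).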

How the data were processed

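Polyadenylated RNA from 18 samples of cultured mouse CD4 T cells was read by 3′ mRNA sequencing (Lexogen FWD kit, 50 ng of RNA), per the labels' protocols. The deposited files hold expected counts per Entrez gene on mm10, produced with STAR 2.7.2b and featureCounts 1.6.4 by the authors, per the submitters' processing notes. Between 11.7% and 18.1% of values per library were not whole, so reads were partly shared between genes, and counts were rounded before testing, although the tests had been planned for whole counts. Symbols came from a RefSeq table of GRCm38.p6, which named 25275 of 27179 identifiers; unnamed ones held a mean of 38.1% of counts and stayed in the totals. Use of strand in counting is not stated.

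R 4.3.3 and edgeR 4.0.16 (TMM, filterByExpr, robust quasi-likelihood fit on all 18 libraries, 11735 genes tested) gave 13 comparisons, 1 of them on counts summed per number (11693 genes). P-values were Benjamini-Hochberg adjusted over all tested genes, with a threshold of 0.05. Fold changes are log2, with an SE worked back from the fold change and the F statistic of edgeR's test. CPM use TMM-scaled totals. Named are called members whose libraries do not overlap, the 3 members with the smallest adjusted p where fewer were called, and up to 4 called genes of each other list; members shown for non-overlap alone, Mxd4 and the genes of the spread paragraph were chosen after their values were seen. The members and lists were chosen with earlier results of these data known. Alternatives were DESeq2 1.42.0, no filter, plain library sizes, the compared groups alone, a replicate block, and each library left out.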

Additional observations from a re-analysis of the deposited data

Results flagged for a closer look

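The label effect differed between conditions, by a test of the difference itself, for 2 genes from the list of other Myc targets and for none of the 44 members. Of the 29 tested genes of that list, 1 was called for Tfh1 and TfhA (3.45%, against 0.239% of tested genes). For Tfh5 and TfhA, 2 were called (6.90%, against 1.19%). For Tfrc, the Cre-positive minus Cre-negative difference was lower in Tfh1 than in TfhA by a log2 value of -1.37 ± 0.29 (SE, adjusted p 0.0234, edgeR) and lower in Tfh5 than in TfhA by -1.54 ± 0.30 (adjusted p 0.00254). Both tests share the TfhA libraries. The first was lost when 1 of 7 of the 12 libraries was left out (adjusted p up to 0.127), namely Cre-negative TfhA library 5, Tfh1 libraries 2 and 5, Cre-positive TfhA libraries 3 and 6 and Tfh1 libraries 1 and 3. The second was called without each library in turn.

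For Nme2 the label effect in Tfh5 minus that in TfhA was -1.07 ± 0.25 (adjusted p 0.0200, edgeR). Nme2 was at 1034, 920 and 896 CPM in the Cre-negative libraries 2, 4 and 5 of Tfh5 and at 478, 569 and 447 CPM in the Cre-positive libraries 1, 3 and 6, while in TfhA it was at 484 to 527 CPM and at 453 to 603 CPM. The Cre-negative Tfh5 libraries thus stood above all libraries of the other 3 groups in this test. The call was lost without Cre-negative TfhA library 4 or 5, Cre-positive TfhA library 1 or 6 or Cre-positive Tfh5 library 6 (adjusted p up to 0.0653). Groups of 3 libraries are too small for a test of single outlying libraries.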

How the results depend on the processing

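The number of members called depended on the settings more than the direction of their medians did. The median in the label effect in Tfh5 did change sign with plain library sizes, as given above. In the label effect in Tfh5, 2 members were called in the reported fit, 1 without the filter on low counts, 0 with plain library sizes and 0 with the compared groups alone. Of all tested genes, 380 of 11735, 461 of 16302, 363 of 11735 and 80 of 9662 were called in these fits, in this order. In Tfh1 minus TfhA in the Cre-negative label the members' count of 1 became 3 with DESeq2, without the filter and with plain library sizes. It became 6 with the compared groups alone and 0 with the replicate block, where Dkc1 had an adjusted p of 0.059 (edgeR). All genes called went from 262 of 11735 to 438 with DESeq2, 381 of 16302 without the filter and 255 with plain library sizes. They were 566 of 10218 with the compared groups alone and 282 of 11735 with the block. In the Cre-positive label the members' count of 1 became 4 with DESeq2, 3 without the filter and 4 with plain library sizes. All genes called went there from 302 of 11735 to 588, 430 of 16302 and 308. Tfh5 minus TfhA in the Cre-positive label gave 1 member with the compared groups alone, and Tfh5 minus Tfh1 in that label 1 with DESeq2. The summed label effect gave 5 with DESeq2 and 4 without the filter. All genes called were 492 of 9941 in the first of these fits, against 633 of 11735 in the reported fit. They were 404 of 11735 in the second, against 206. In the summed fits they were 549 of 11693 and 455 of 16441, against 197 of 11693. Plain library sizes moved the members' median to -0.64 and -0.59 in Tfh1 and Tfh5 minus TfhA in the Cre-negative label, to -0.52 and 0.26 in Tfh1 minus TfhA and Tfh5 minus Tfh1 in the Cre-positive label, and to 0.47 and 0.33 in the differences of label effects of Tfh5 from TfhA and Tfh1; the median of all genes moved the same way in each (by -0.15, -0.22, -0.13, 0.09, 0.20 and 0.18). The cause of these changes was not tested.

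With 1 library or number left out, the count of members called ran from 0 to 1 in the label effect in Tfh5, from 0 to 2 in Tfh1 minus TfhA and from 1 to 3 in Tfh5 minus TfhA in the Cre-negative label, from 1 to 3 and from 0 to 2 in the same contrasts of the Cre-positive label, and was 0 in each of the 6 summed fits, which compare 2 numbers with 3. The median ran from -0.274 to -0.048 in the label effect in Tfh5, from -0.63 to -0.42 in Tfh1 minus TfhA, from -0.44 to -0.19 in Tfh5 minus TfhA and from 0.088 to 0.294 in Tfh5 minus Tfh1 in the Cre-negative label, from 0.11 to 0.37 in the difference of label effects between Tfh5 and TfhA and from 0.00300 to 0.18 in that between Tfh5 and Tfh1. In the Cre-positive label it ran from -0.50 to -0.27 in Tfh1 minus TfhA, from -0.26 to -0.074 in Tfh5 minus TfhA and from 0.028 to 0.25 in Tfh5 minus Tfh1. It ran from -0.42 to -0.21 and from -0.23 to -0.14 in the label effects in TfhA and Tfh1, from -0.33 to -0.21 in the summed label effect and from 0.031 to 0.22 in the difference of label effects between Tfh1 and TfhA. No median changed sign in these fits.

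Same-numbered libraries were not treated as paired in the reported fit. Their deviations correlated at -0.04 to 0.08 over 18 pairs, none above 0.1, and 8 of 18 libraries correlated best with their own number. The deviations are from means of only 3 libraries, so these correlations cannot show whether a number stands for 1 animal. The replicate block changed no other count of members by over 1.5 times. Each group has 3 libraries, the effect of rounding fractional counts was not tested, and Myc rests on 6 to 240 counts a library.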
